A study of Mus musculus with 16 samples.

Results

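A list of 33 genes of B cell identity and B cell receptor signalling was followed in blood and in tumour-infiltrating cells of mice with Hepa1-6 tumours. The genes were listed by name, not by a cut on measured values, and each was read through its brightest tested probe. Of the 33 genes, 31 had a probe that could be named and 30 were tested, among 12311 genes tested on the arrays. Ighm, the mu heavy chain, and Cd40 had no named probe, and the probe of Pax5, a factor that maintains B cell identity, was too dim to be tested. By what is generally known of them, 22 of the 33 were classed as largely restricted to B cells (B-restricted). Another 7 were classed as also made by other leukocytes (Cd72, Cd37, Cd180, Cd40, Bcl11a, Swap70, Irf4). The last 4 are signalling enzymes that myeloid cells use too (Lyn, Syk, Btk, Plcg2). Of these, 20, 6 and 4 were tested. B-restricted is the label of a class, and for Blnk and Ralgps2 the bright infiltrating signal given below does not bear it out. Ly6d, Cd22 and Bank1, of the same class, also had higher median Cy5 readings in infiltrating cells than in blood.

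B cells sense antigen through a membrane immunoglobulin that signals through the paired chains encoded by Cd79a and Cd79b. Lyn and Syk phosphorylate the chains, the adaptor encoded by Blnk assembles Btk and the phospholipase encoded by Plcg2, and calcium and protein kinase C signals follow. The same enzymes act behind Fc receptors and integrins in macrophages and neutrophils, so their transcripts do not by themselves mark B cells, whereas Ms4a1 (CD20), Cd79b or Cd22 do so in blood.

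The blood group (8 samples) and the infiltrating group (8 samples) came from female mice, C57Bl/6 in the strain field and athymic in the treatment text, 10 days after subcutaneous inoculation of Hepa1-6, a mouse hepatoma line. Tumours were mashed and a fraction enriched in inflammatory cells was taken from a density gradient. It is called infiltrating cells here. Sample RNA was labelled with Cy5. Blood RNA of untreated female C57Bl/6 mice, not described as athymic, was labelled with Cy3 on all 16 arrays and is called the reference. The labels do not settle whether the tumour-bearing mice were athymic. Tumour, handling of the mice and an athymic background, if there was one, therefore cannot be told apart in a comparison with the reference. Blood and infiltrating cells also differed in RNA kit and slide. No dyes were swapped, so a gene's dye bias stays in its ratio. Both groups carry the sample numbers 889, 890, 891, 893, 894, 896, 897 and 898, and the labels do not say that a number is an animal. The p-values measure the spread between these samples, and the untreated blood, as a single reference, adds none of its own.

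The scanner's median spot intensities, in units, were turned into log2 ratios of Cy5 over Cy3 after background correction and an intensity-dependent correction within each array (loess). A gene was called where limma's Benjamini-Hochberg adjusted p over all tested probes was under 0.05 and the change was at least 2-fold. The share of probes that stood clear of background in Cy5 was 24.8% to 36.3% on blood arrays and 51.1% to 65.8% on infiltrating arrays. In Cy3 it was 41% to 45.3% on blood arrays and 46.6% to 51.1% on infiltrating arrays. The infiltrating arrays also differed in scale. Before loess the ratios of the members on those arrays lay 0.59 to 2.90 higher on the log2 scale than after it. With each array centred on its median instead of loess, the median log2 ratio of infiltrating cells over all tested genes was 1.20 (0.04 after loess), and 6852 of 7259 called genes were higher (1145 of 2390 after loess). The sign of several members in infiltrating cells changed with the scaling. The summed Cy5 signal of 5 tested hepatoma genes was 114000 to 650000 units in infiltrating cells and 90.9 to 199 in blood. On the infiltrating arrays their sum in the reference channel was 7980 to 18400 units, against 218 to 258 on the blood arrays, although the reference is labelled as the same kind of RNA. The part of this in the ratios was not tested.

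Promoter sequence is shown for 4 members that hold a motif of 2 factors on the list. Pou2af1 encodes a coactivator that acts with octamer-binding proteins, and Ebf1 encodes an early B cell factor. RefSeq windows of 300 bases (assembly GRCm38.p6, from 250 bases before the start site) were matched for 25 of the 33 members, 31 windows in all. Both strands were searched for the octamer ATGCAAAT, the early B cell factor core CCCNNGGG and the PU.1 motif GAGGAAGT. The octamer was found in 2 of 31 windows (6.45%), against 1.74% of all 32851 windows. The early B cell factor core was in 3 of 31 (9.68%, against 13.7%) and the PU.1 motif in 2 of 31 (6.45%, against 3.2%). Capitals mark the match in each window, and positions are those of its first base counted from the start site. Blnk lies at chr19:40994172-40994471 (minus strand) with an octamer at -130 and Vpreb3 at chr10:75948050-75948349 (plus strand) with an octamer at -45, both read on the opposite strand of the gene. Cd22 lies at chr7:30878979-30879278 (minus strand) with a factor core at -48 and Bank1 at chr3:136326017-136326316 (minus strand) with a factor core at -21.
Blnk: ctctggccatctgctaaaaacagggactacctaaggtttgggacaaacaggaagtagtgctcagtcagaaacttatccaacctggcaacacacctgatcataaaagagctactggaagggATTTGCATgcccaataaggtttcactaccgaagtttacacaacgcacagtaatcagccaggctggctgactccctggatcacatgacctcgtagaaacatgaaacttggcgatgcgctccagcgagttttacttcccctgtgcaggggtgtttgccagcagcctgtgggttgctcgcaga
Vpreb3: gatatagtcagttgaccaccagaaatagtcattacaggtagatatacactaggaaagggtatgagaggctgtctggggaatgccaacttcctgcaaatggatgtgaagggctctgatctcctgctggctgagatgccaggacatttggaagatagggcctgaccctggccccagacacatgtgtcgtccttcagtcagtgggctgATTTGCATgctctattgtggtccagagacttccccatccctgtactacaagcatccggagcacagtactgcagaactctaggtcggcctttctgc
Cd22: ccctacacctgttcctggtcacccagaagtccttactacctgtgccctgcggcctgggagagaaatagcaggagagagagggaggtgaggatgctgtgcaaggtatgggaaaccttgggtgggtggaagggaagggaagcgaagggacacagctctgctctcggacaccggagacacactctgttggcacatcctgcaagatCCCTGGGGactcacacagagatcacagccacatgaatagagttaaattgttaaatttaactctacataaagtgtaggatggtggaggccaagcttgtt
Bank1: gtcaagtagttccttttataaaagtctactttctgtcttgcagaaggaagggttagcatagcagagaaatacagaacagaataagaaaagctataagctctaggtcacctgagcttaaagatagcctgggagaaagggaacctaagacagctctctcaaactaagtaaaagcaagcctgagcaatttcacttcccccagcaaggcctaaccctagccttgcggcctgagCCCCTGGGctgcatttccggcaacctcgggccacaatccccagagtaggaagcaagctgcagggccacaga
Spib held 2 overlapping factor cores, at -65 and -64, and the PU.1 motif was at -49 in Cd72 and -25 in Cd37. A match is a description of these letters, and the counts are too small to set the members apart from other genes.

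Blood of tumour-bearing mice held lower signal of B cell genes than untreated blood. Of the 30 tested members 7 fell and 0 rose: Cd79b, Ms4a1, Ly6d, Blnk, Tnfrsf13c, Fcrla and Fcmr. Over all tested genes 0.244% fell and 0.504% rose in the same comparison. The median log2 ratio was -0.65 over the members and -0.02 over all genes. The other 23 members were not called, at log2 ratios between -0.94 (Vpreb3) and 0.16 (Syk). In whole-blood RNA, fewer B cells and less transcript per B cell cannot be told apart.

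Cd79b, a signalling chain of the receptor, read 1795 units at the lowest, 2382 at the median and 3974 at the highest over the 8 blood samples, against 8120, 9508 and 11280 in the reference channel of the same arrays. Each sample lay below each reference reading. This alone does not set a gene apart, since on blood arrays fewer probes stood clear of background in Cy5 than in Cy3. Plcg2, which was not called, also read 438 to 988 units against 1559 to 2158. The log2 ratio of Cd79b was -1.54 (SE 0.11, adjusted p = 4.5e-08), from -2.15 to -0.66 over the arrays. Its partner Cd79a was a dim probe, at 183 to 232 units in blood and 201 to 220 in the reference, and its log2 ratio of 0.06 (adjusted p = 0.41) was not called. The probe of Cd79a thus lay near the local background, whose array medians were 151 to 156 units in Cy5 of the blood arrays, and says little of the transcript.

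Ms4a1, the CD20 surface protein, read 1351, 2024 and 3632 units (lowest, median, highest) in blood and 5769, 6544 and 7854 in the reference. All blood samples were below all reference readings, with the same limit as for Cd79b. The log2 ratio was -1.35 (SE 0.13, adjusted p = 6e-07). Of the other surface proteins, Ly6d, a marker of the B lineage, gave -1.28 (SE 0.086, adjusted p = 2.5e-08) and Tnfrsf13c, the BAFF receptor that sustains mature B cells, gave -1.22 (SE 0.086, adjusted p = 3.8e-08). Cxcr5, the chemokine receptor that leads B cells to follicles, was at -0.77, short of a 2-fold change. Cd37, a tetraspanin, was at 0.02 and Tnfrsf13b (TACI), well above background on 0 of 8 blood arrays, at -0.17.

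Among coreceptors and inhibitory receptors, Fcmr, the Fc receptor for IgM, fell by 1.17 (SE 0.086, adjusted p = 5.6e-08), from a reference of 2758 to 3521 units to 838 to 1488 units in blood. Cd22 and Fcer2a, an inhibitory lectin and the low-affinity IgE receptor CD23, were at -0.92 and -0.70, negative on all 8 arrays but under 2-fold. Blk and Irf4, well above background on 0 of 8 blood arrays, were negative on all 8 too. By a dimmer probe Cd22 was at -0.19. Cr2, the complement receptor CD21, was at -0.33 by its brighter probe and at 0.16 by a dimmer one. Cd72 was at -0.18 and Cd180, well above background on 0 of 8 blood arrays, at -0.12. Of the intracellular proteins, Fcrla, an Fc receptor-like protein of B cells, fell by 1.22 (SE 0.069, adjusted p = 4.7e-09), and Vpreb3, known from B cell precursors, was at -0.94.

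The adaptor Blnk read 1024, 1345 and 2291 units in blood against 3910, 4435 and 5453 in the reference, and fell by 1.29 (SE 0.11, adjusted p = 1.8e-07). The scaffold Bank1 was at -0.89, Ralgps2, an exchange factor, at -0.72, Swap70 at -0.60 and the kinase Blk, well above background on 0 of 8 blood arrays, at -0.17. Of the shared enzymes, Plcg2 was at -0.85 (adjusted p = 1.6e-07), Btk at -0.23, Lyn at -0.09 (adjusted p = 0.29) and Syk at 0.16, and none was called. Among transcription factors, Pou2af1 was at -0.87, Bcl11a at -0.48, Spib at -0.24, Ebf1, well above background on 3 of 8 blood arrays, at -0.28 and Irf4, on 0 of 8, at -0.16.

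The 7 calls in blood were lower in each of 5 scalings run (loess, median centring, centring on spike-ins, the program's deposited ratios, and no normalisation within the array), which called 7 to 17 members, all lower, where 0.244% (loess) to 7.18% (median centring) of all tested genes were lower. On the first blood slide 7 members fell and on the second 11. Across the 8 blood samples, sample 889 had the highest ratio for 7 of the 7 and sample 897 the lowest for 7 of the 7. The median over the 20 B-restricted members was -0.45 in sample 889 and -1.18 in sample 897. Brightness went with the calls: 17 members had a reference median of at least 500 units, a limit set after the values were seen, and these held all 7 falls, with a median log2 ratio of -0.92. The 13 dimmer members held 0 falls and a median of -0.17.

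Neutrophil genes were higher in the same blood: 4 of 8 tested rose, 0 fell, and the list's median log2 ratio was 1.01 (0.49 with median centring). Their summed Cy5 signal was 28600 to 86500 units against 25900 to 37500 in the reference. Of 9 tested T cell genes 0 were called, with a median of -0.22, and their sum was 1590 to 3250 units against 4080 to 5360. Of 14 myeloid genes 0 were called, with a median of 0.01. The part of the neutrophil genes in the lower B cell ratios was not tested. In infiltrating cells the T cell sum was 19400 to 55200 units, against 5200 to 7700 in the reference channel of those arrays. The median log2 ratio of the T cell list there was -0.74 after loess and 0.75 with median centring. Whether the mice lacked T cells was not tested.

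**Figure D1:**
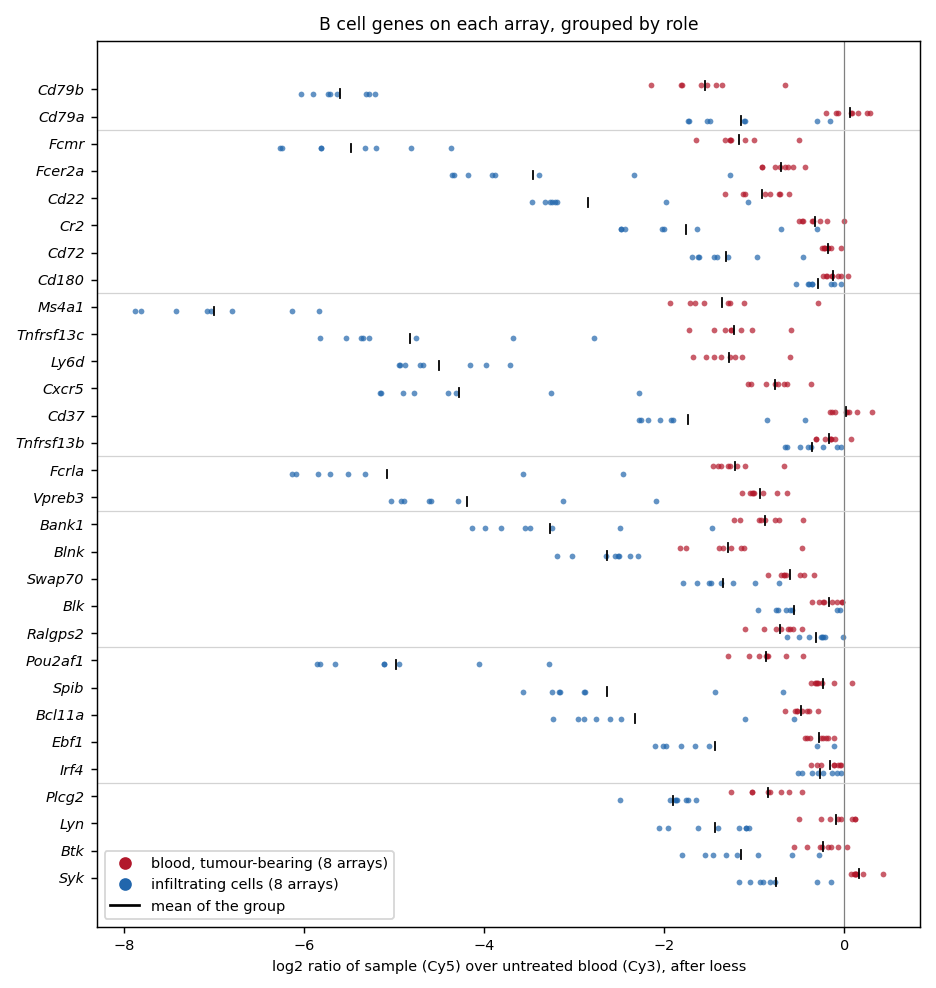
Log2 ratio over untreated blood after loess (x axis) for the 30 tested members (y axis, grouped by role), with 1 point per array and a bar at the mean of 8. Blood points of Cd79b lie between -2.15 and -0.66 and infiltrating points between -6.03 and -5.21; with median centring or spike-in centring in place of loess the negative infiltrating values of Lyn, Syk and Ralgps2 turn positive, those of Btk, Cd72, Plcg2, Swap70 and Irf4 turn with median centring, and with no normalisation those of Blk, Blnk, Cd180, Cd37 and Tnfrsf13b turn as well.

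In infiltrating cells 17 of the 20 tested B-restricted genes fell below untreated blood after loess. Of all 30 members 24 fell and 0 rose, where 10.1% of all tested genes fell and 9.3% rose. The median was -2.11 over the members and 0.04 over all genes. Called lower in each of the 5 scalings were 10 members: Cd79b, Ms4a1, Fcmr, Fcrla, Ly6d, Tnfrsf13c, Cxcr5, Pou2af1, Vpreb3 and Fcer2a. With median centring 16 members fell and 1 rose (Ralgps2), with spike-in centring 21 fell and 1 rose, and with no normalisation within the array, an alternative added after seeing the data, 10 fell and 5 rose. Of all tested genes 3.31%, 9.17% and 1.65% fell and 55.7%, 37.6% and 74.3% rose in these settings.

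Ms4a1 read 284 to 542 units in the 8 infiltrating samples (median 374) against 6597 to 7188 in the reference (median 6864). Sample and reference were far apart on each array, and the log2 ratio was -7.00 (SE 0.22, adjusted p = 2.9e-09) after loess and -4.21 before it. Cd79b read 861 to 1828 units (median 1467) against 8825 to 9598 (median 9152). Its log2 ratio was -5.60 (SE 0.097, adjusted p = 6.7e-11) after loess and -2.73 before it. Cd79a was well above background on 0 of 8 infiltrating arrays and read 162 to 170 units there, against 186 to 221 in the reference, where the probe was dim too. Its log2 ratio was -1.14 after loess (adjusted p = 3.9e-04), -0.98 with median centring and -0.23 with no normalisation, the latter pair not called, so the size of its difference is not settled.

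Fcmr read 355 to 669 units (median 491) against 3030 to 3388 (median 3270), with a log2 ratio of -5.48 (SE 0.20, adjusted p = 9.4e-09). Fcrla read 179 to 246 units (median 200) against 1146 to 1356 (median 1272), with a ratio of -5.08 (SE 0.40, adjusted p = 2.5e-06). Pou2af1 read 279 to 561 units (median 348) against 1632 to 1972 (median 1894), with a ratio of -4.98 (SE 0.27, adjusted p = 1.5e-07). For each of these, all infiltrating samples were below all reference readings. The dim probe of Cd79a was so too, at 162 to 170 units against 186 to 221, so this alone does not set a gene apart. The share of all tested genes for which it holds was not counted. Tnfrsf13c was at -4.82, Ly6d at -4.50, Cxcr5 at -4.28, Vpreb3 at -4.20 and Fcer2a at -3.46, each negative on 8 of 8 arrays. After loess this held for every tested member, also for Ralgps2 at -0.31, so it sets none of them apart.

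Bank1 (-3.27), Cd22 (-2.84), Spib (-2.63) and Bcl11a (-2.32) were called lower after loess, and each stayed below 0 in the other 4 scalings, at -0.95, -0.62, -0.83 and -0.59 with no normalisation. By a dimmer probe, after loess, Cd22 was at -0.34, short of 2-fold, Bank1 at -1.49 and Bcl11a at -2.41. Vpreb3, named above, was at -1.51 by its dimmer probe. Cr2 (-1.76) and Ebf1 (-1.44) also had negative values in all 5, but in infiltrating cells their probes were well above background on 1 and 2 of 8 arrays, at 160.5 to 171 and 158 to 182.5 units, so these values are not exact. Blk, Tnfrsf13b, Cd180 and Irf4 were not called, at -0.55, -0.36, -0.29 and -0.27. Blk and Tnfrsf13b were well above background on 0 of 8 infiltrating arrays, and with no normalisation they were at 0.04 and 0.23, so no direction is given for them. With no normalisation Cd180 and Irf4 were at 0.65 and 0.94.

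**Figure D2:**
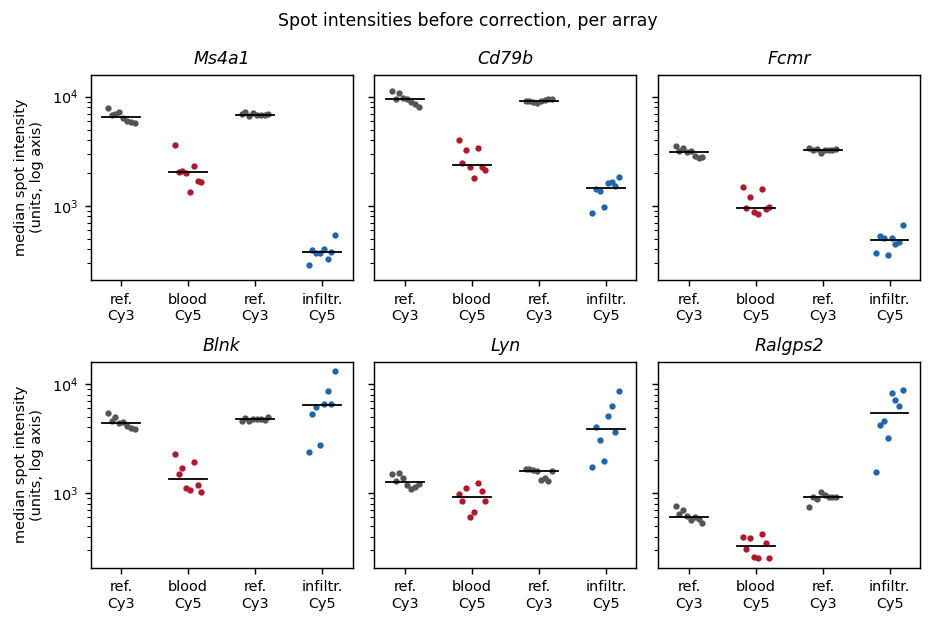
Median spot intensity before any correction (y axis, units, log axis) of 6 members on the 8 blood and 8 infiltrating arrays, with the reference channel (Cy3, grey) beside the sample channel (Cy5) and a bar at the median. Ms4a1, Cd79b and Fcmr are lower in both sample groups than in the reference, while Blnk, Lyn and Ralgps2 have infiltrating medians of 6361, 3842 and 5426 units, above those of blood.

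The shared enzymes lay above most B-restricted genes, and their direction depended on the scaling. After loess Plcg2 (-1.90), Lyn (-1.43) and Btk (-1.14) were called lower in infiltrating cells and Syk (-0.76) was not, but with median centring the values were 0.18, 0.64, 0.17 and 0.69, and with no normalisation 0.93, 1.39, 0.92 and 1.44. Lyn read 1727 to 8625 units (median 3842) in Cy5 of the infiltrating arrays, against 1281 to 1663 (median 1591) in the reference on the same arrays and 606 to 1242 (median 924) in Cy5 of the blood arrays. Plcg2 read 1497 to 5608 units (median 3250) against 1649 to 1752 in the reference. The spot intensities of Lyn were thus above the reference on 8 of 8 arrays, and its negative loess ratio is relative to other probes of that brightness. The summed Cy5 signal of 14 tested myeloid genes was 98400 to 401000 units in infiltrating cells and 19900 to 42600 in blood, and its part in the enzymes' signal was not tested.

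Among the remaining members with bright infiltrating signal, Blnk read 2367 to 13100 units (median 6361) against 4567 to 4994 in the reference. Its log2 ratio of -2.64 (adjusted p = 9.8e-09) was -1.12 with spike-in centring, -0.48 with median centring and 0.26 with no normalisation. Ralgps2 read 1575 to 8881 units (median 5426) against 748 to 1020, and its ratio of -0.31 became 1.12 with spike-in centring and 1.76 with median centring, both called higher. Swap70 (-1.34) and Cd72 (-1.32), called lower after loess, were at 0.56 and 0.35 with median centring. Cd37 (-1.74) stayed below 0 except with no normalisation (0.24).

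Centring moves all genes of an array together, so members were also set against each other within the array. In each array, the median log2 ratio of the 4 shared enzymes was taken from the median of the 20 B-restricted members, as a description with no p. The 20 include Blnk and Ralgps2, whose Cy5 medians were 6361 and 5426 units in infiltrating cells and 1345 and 326 in blood. Ms4a1, of the same class, had 374 and 2024. Ly6d, Cd22 and Bank1 read higher in infiltrating cells before any scaling, at 991 and 849, 390.5 and 265.5, and 379.8 and 317.8. In blood the difference averaged -0.71 (SD 0.19, n = 8), from -1.07 to -0.49. In infiltrating cells it averaged -2.15 (SD 0.56, n = 8), from -2.72 to -1.09. It was below 0 on 8 of 8 arrays of each group, and with median centring it averaged -0.76 and -2.32, again below 0 on all 16. Members also made by other leukocytes lay with the shared enzymes, with a median of -0.21 (SD 0.059) in blood and -1.30 (SD 0.42) in infiltrating cells. Brightness went with the classes. In infiltrating cells the 17 members with a reference median of at least 500 units had a median of -4.20 and the 13 dimmer ones -1.14. Cd72, Cd37, Cd180, Bcl11a, Irf4, Btk and Syk were among the dimmer, and Lyn, Plcg2 and Swap70 among the brighter. The part of brightness in the difference of the classes was not tested.

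Against Cd79b on the same array, Syk, Lyn and Btk were called higher in blood and Plcg2 was not, and all 4 were called higher in infiltrating cells. Cd79b was among the lowest genes on these arrays, since 96.7% of all tested genes were called higher than it in blood and 99.3% in infiltrating cells. The count of enzymes above Cd79b is therefore near the background and sets them apart from nothing.

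**Figure D3:**
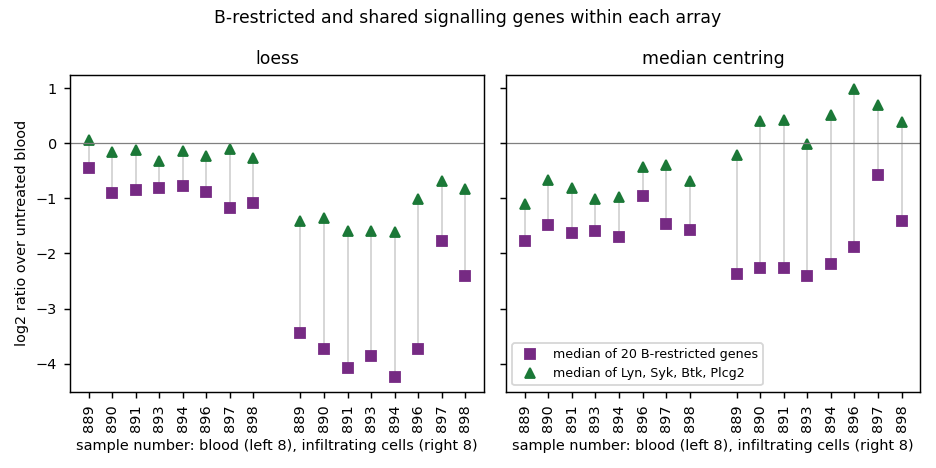
Median log2 ratio over untreated blood (y axis) of the 20 tested B-restricted members (squares) and of Lyn, Syk, Btk and Plcg2 (triangles) on each array (x axis, sample numbers), after loess (left) and with median centring (right). Squares lie below triangles on all 16 arrays in both panels, while the infiltrating triangles average -1.26 after loess and 0.40 with median centring.

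Genes of other blood cells were also lower in infiltrating cells: 7 of 8 tested erythroid genes and 6 of 6 platelet genes fell against the reference, with medians of -4.82 and -5.36 (-3.33 and -3.24 with median centring). The ratios of the infiltrating samples differed among themselves. The B-restricted median was -1.78 in sample 897 and -2.41 in sample 898, against -4.25 to -3.44 in the other 6. Sample 897 had the highest ratio for 21 of the 24 called members and sample 894 the lowest for 17. Marker genes of other blood cells had their highest ratios on the same arrays: the erythroid list had a median of -4.06 in sample 897 and -4.52 in sample 898, against -5.84 to -4.68 in the others, and the neutrophil list -0.13 and -0.39 against -1.41 to -0.91, all after loess. Over the 8 arrays the neutrophil list was at -1.02 after loess, 0.35 with median centring and 1.09 with no normalisation, so its direction against the reference depends on the scaling. In summed Cy5 signal the 4 tested B cell markers read 1750 and 2280 units in samples 897 and 898, against 935 to 1880 in the others. The neutrophil sum was 95800 and 113000 units in these samples, against 15300 to 61200. The erythroid sum was 166000 and 153000 units, against 66800 to 155000, and so did not set both samples apart. Spot readings could be alike where the ratios were not, for members with a dim and with a bright reference. Pou2af1 read 349.5 units in sample 897 and 349 in sample 896 (reference 1812 and 1949), at log2 ratios of -3.28 and -5.86. Ms4a1 read 375.5 units in sample 897 and 369 in sample 891 (reference 6834 and 6597), at -5.83 and -7.42. Fcer2a read 245 units in sample 897 and 244 in sample 894 (reference 661 and 612.5), at log2 ratios of -1.27 and -4.36. Spib read 234.5 and 242.5 units (reference 429.5 and 420.5), at -0.69 and -3.57. The part of background correction in this was not tested. Whether the erythroid and neutrophil lists have a part in the B cell ratios was not tested. Without samples 897 and 898, 24 members were called, as with them.

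Set against blood of tumour-bearing mice directly, infiltrating cells had 22 of 30 members lower and 0 higher after loess, where 11.8% of all tested genes were lower and 12.1% higher. The median difference was -1.59 over the members and 0.08 over all genes. This one-sided count depended on the scaling: 27 members were lower and 0 higher with the deposited ratios, 16 and 3 with spike-in centring, 7 and 7 with median centring, and 4 and 9 with no normalisation. Of all genes 22.6%, 9.56%, 2.71% and 1.55% were lower in these settings and 34.4%, 45.4%, 59.9% and 71.9% higher. Called lower in each of the 5 scalings were 4 members, Ms4a1, Fcmr, Pou2af1 and Fcrla, of which Fcrla lost its call with no normalisation when each probe's own variance was used. Both comparisons with the reference enter this one, so it is no further support for them.

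Ms4a1 differed by -5.65 (SE 0.28, adjusted p = 4.7e-12), with Cy5 readings of 284 to 542 units in infiltrating cells and 1351 to 3632 in blood. Over the 5 scalings its difference ran from -6.70 with the deposited ratios to -2.46 with no normalisation. Fcmr differed by -4.31 (SE 0.24, adjusted p = 2.1e-11) and Pou2af1 by -4.11 (SE 0.30, adjusted p = 9.1e-10). Cd79b differed by -4.06 (SE 0.17, adjusted p = 3.8e-13) after loess, and its readings of 861 to 1828 units in infiltrating cells overlapped narrowly with 1795 to 3974 in blood. Cd79a, not well above background in infiltrating cells, was at -1.20 after loess, -0.69 with median centring and -0.10 with no normalisation, and was called in the first of these only.

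For the enzymes and adaptors the direction of this difference depended on the scaling. Lyn (-1.34), Plcg2 (-1.05) and Blnk (-1.35) were called lower after loess and called higher with median centring, at 1.37, 1.66 and 1.39. Syk (-0.92) and Btk (-0.91), not called after loess, were at 1.07 and 0.93. Swap70 was at -0.74 after loess and 1.83 with median centring, and Ralgps2 at 0.40 and 3.14. With the Cy5 channel alone, scaled to equal distributions over the 16 arrays (added after seeing the data), 23 members were lower and 0 higher, among them Lyn (-1.76), Plcg2 (-1.80) and Blnk (-1.82). Of all 12311 tested genes 4545 were called in this setting, 2616 of them higher and the rest lower.

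**Figure D4:**
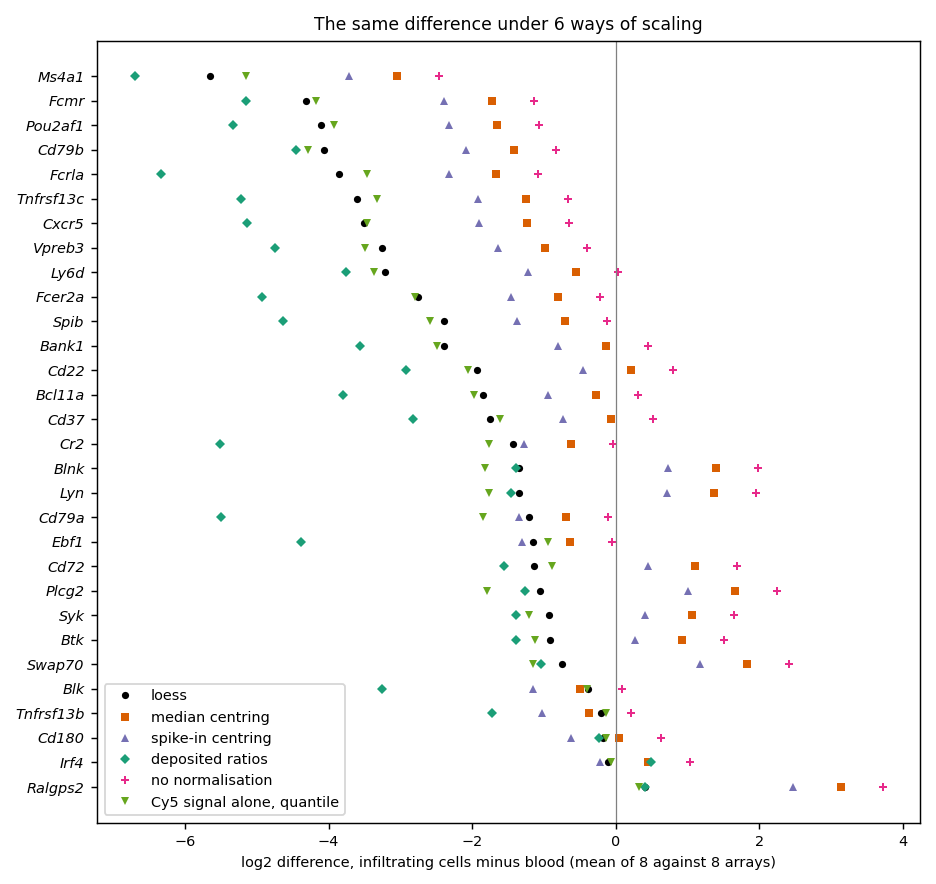
Log2 difference of infiltrating cells minus blood (x axis, means of 8 against 8 arrays) for each tested member (y axis) under 6 ways of scaling. Ms4a1, Fcmr, Pou2af1 and Fcrla stay left of 0 under all shown, while Blnk, Lyn, Plcg2, Syk, Btk, Cd72 and Swap70 lie right of 0 with median centring, spike-in centring and no normalisation and left of it with loess, the deposited ratios and Cy5 alone.

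Other genes of the lineage and pathway were read from 4 further lists. Of 25 other B cell genes 20 were tested, 0 were called in blood, and in infiltrating cells 11 fell and 1 rose against the reference, with a median of -1.30 (-0.52 with median centring, 0.22 with no normalisation). Of all tested genes 10.1% fell and 9.3% rose in infiltrating cells after loess. Ccr6, a chemokine receptor, fell by 3.31 in infiltrating cells and Cd24a, also abundant in red cell precursors, by 4.48, and both stayed below 0 in all 5 scalings. Fcgr2b, the inhibitory Fc receptor that macrophages make too, was the 1 that rose, at 1.33 (SE 0.099, adjusted p = 1.6e-06) after loess and up to 4.17 with no normalisation, with readings of 2334 to 26000 units where the reference channel read 481 to 606.

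Of 26 genes downstream of the receptor 23 were tested, and 0 were called in blood. In infiltrating cells 5 fell, among them Vav2, Rasgrp3, Prkcb and Nfatc1, and 0 rose against the reference, with a list median of -0.46. With median centring 1 fell and 13 rose, with a median of 1.15. Of all tested genes 10.1% fell and 9.3% rose after loess, and 3.31% fell and 55.7% rose with median centring. The 13 rises of 23 tested are thus near the background. Prkcb, the protein kinase C of B cell receptor signalling, fell by 1.76 after loess and was at 0.16 with median centring. Rasgrp3, a Ras exchange factor, fell by 1.89 and was at -0.52 with median centring and 0.22 with no normalisation. Against blood 4 genes of the list were lower and 1 higher after loess, and 1 lower and 18 higher with median centring. Of all tested genes 11.8% were lower and 12.1% higher after loess, and 2.71% lower and 59.9% higher with median centring. The 1 gene of the list higher after loess was Malt1, a protease of the pathway to NF-kappaB, at 1.14 (adjusted p = 8e-09), and above 0 in all 5 scalings. Of 9 plasma cell genes 8 were tested: Ell2 and Mzb1 fell against the reference after loess, by 2.23 and 1.14, and were at 0.39 and -0.001 with no normalisation. Against blood 2 plasma cell genes were lower and 2 higher after loess, among the latter Prdm1, also made by other leukocytes, at 1.01. Of 6 survival ligand genes 3 were tested and 0 called in any comparison after loess, Tnfsf13b (BAFF) being at 0.11 in blood and 0.09 in infiltrating cells.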

How the data were processed

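The members and all gene lists were chosen with earlier results of these data known. Deposited scanner files give median spot intensities of both channels and a log10 ratio that, per the file headers, the program had already corrected and normalised; the value table repeats it. The headers name Agilent Feature Extraction 10.5.1.1, where the processing notes of the submitters give 9.1.3.1. Intensities were corrected with normexp (offset 50), then loess was applied (limma 3.58.1, R 4.3.3), with control spots at weight 0 and 87 to 153 flagged spots per array left out. Saturated spots numbered 0. Of 41174 probes, 23374 were named through RefSeq accessions (assembly GRCm38.p6) and 17800 were not. A tested probe (26509) was above background, by the program's flag, on 4 or more of a group's 8 Cy5 arrays or 8 or more of 16 Cy3 arrays. Each gene was represented by its brightest tested probe. Ratios were tested against 0, and the groups against each other, with lmFit and eBayes, which were tested on simulated data. Probes not well above background are marked so beside their values. All members are named; genes of other lists were picked as examples after their values were seen. Some genes that enter the counts of those lists are not reported here by name. Spike-in centring used the median of 320 control features. With spike-in centring or no normalisation, arrays shift as a whole and limma shared the variance almost fully between probes, so their calls were repeated with each probe's own variance. The number of arrays limits the precision. Figures were drawn with matplotlib 3.10.9.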

Additional observations from a re-analysis of the deposited data

Results flagged for a closer look

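In 60 sets of 8 arrays (30 members in 2 groups), 4 held 1 sample far from the other 7, where chance gives about 1 in 20. The count is near that share. A rule for 1 sample can miss samples that lie apart together, as 897 and 898 did in infiltrating cells. In blood, Fcrla was at -0.672 in sample 889 (the next sample at -1.10), Cd72 at -0.038 in sample 896 (next -0.15) and Syk at 0.429 in sample 898 (next 0.20). In infiltrating cells, Plcg2 was at -2.493 in sample 894 (next -1.94).

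The ratio to untreated blood differed between infiltrating cells and blood for 22 members after loess, by limma's test of the difference itself. The differences were -5.646 for Ms4a1, -1.204 for Cd79a, -4.061 for Cd79b, -1.93 for Cd22, -2.755 for Fcer2a, -1.434 for Cr2, -1.347 for Blnk, -1.157 for Ebf1, -2.388 for Bank1, -4.309 for Fcmr, -2.395 for Spib. They were -4.108 for Pou2af1, -3.513 for Cxcr5, -3.861 for Fcrla, -3.6 for Tnfrsf13c, -1.132 for Cd72, -3.214 for Ly6d, -1.052 for Plcg2, -1.345 for Lyn, -1.755 for Cd37, -1.843 for Bcl11a and -3.257 for Vpreb3. Of these, Blnk, Cd72, Lyn and Plcg2 turned positive with spike-in centring and with median centring, and Cd22 with median centring; with no normalisation these 5 and Bank1, Bcl11a, Cd37 and Ly6d were positive. The probes of Cd79a, Cr2 and Ebf1 were well above background on 0, 1 and 2 of 8 infiltrating arrays, so their differences are not exact. By a dimmer probe Cd22 differed by -0.148 and Cr2 by -0.286, both short of 2-fold.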

How the results depend on the processing

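In blood 7 members were called after loess, 14 with the deposited ratios, 17 with median or spike-in centring, 16 with no normalisation and 11 on the second slide alone, all lower. In infiltrating cells against the reference 24, all lower, became 15 with no normalisation, of which 5 were higher, and against blood 22, all lower, became 14 with median centring, of which 7 were higher, and 13 with no normalisation, of which 9 were higher (12 with each probe's own variance, which changed no other count in these 5 scalings). The difference of B-restricted and shared medians in infiltrating cells, -2.15, was -3.941 with the deposited ratios. The other alternatives kept the 3 counts within 1.5 times, and the counts above Cd79b (3 and 4) did not move. Leaving out each sample number gave 7 members in blood, 24 in infiltrating cells and 22 to 24 in their difference.

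Changed signs, also of values called in neither setting, were these. Median centring gave, in log2, Blnk 1.394, Btk 0.928, Cd180 0.048, Cd22 0.215, Cd72 1.108, Irf4 0.449, Lyn 1.374, Plcg2 1.665, Swap70 1.834 and Syk 1.068 against blood; Btk 0.172, Cd72 0.352, Irf4 0.198, Lyn 0.641, Plcg2 0.179, Ralgps2 1.757, Swap70 0.565 and Syk 0.689 in infiltrating cells; and Cd37 -0.438, Cd79a -0.293 and Syk -0.379 in blood. Spike-in centring gave Blnk 0.731, Btk 0.265, Cd72 0.445, Lyn 0.712, Plcg2 1.002, Swap70 1.171 and Syk 0.405 against blood; Lyn 0.002, Ralgps2 1.118 and Syk 0.049 in infiltrating cells; and Cd37 -0.415, Cd79a -0.27 and Syk -0.356 in blood. With no normalisation, values were Bank1 0.448, Bcl11a 0.309, Blk 0.091, Blnk 1.98, Btk 1.514, Cd180 0.634, Cd22 0.801, Cd37 0.514, Cd72 1.694, Irf4 1.035, Ly6d 0.032, Lyn 1.96, Plcg2 2.251, Swap70 2.419, Syk 1.654 and Tnfrsf13b 0.218 against blood. In infiltrating cells they were Blk 0.036, Blnk 0.262, Btk 0.919, Cd180 0.646, Cd37 0.237, Cd72 1.099, Irf4 0.945, Lyn 1.388, Plcg2 0.926, Ralgps2 2.504, Swap70 1.312, Syk 1.436 and Tnfrsf13b 0.226, and in blood Cd180 0.012, Cd37 -0.277, Cd79a -0.132, Syk -0.218 and Tnfrsf13b 0.008. Deposited ratios gave Irf4 0.499 against blood and Cd37 -0.05 in blood. The first slide gave Cd37 -0.055 and Cd79a -0.008, the mean of a gene's probes Cd37 -0.094 and Lyn 0.01, and leaving out samples 897 and 898 Cd37 -0.03, in blood. Cd37 in blood ran from -0.022 to 0.046 with each sample number left out. The cause was not tested. Of 1857 member values under alternatives, 76 changed sign, and 54 lost and 65 gained a call without changing sign.

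Same-numbered samples correlated at -0.17 to 0.2, and 5 of 8 blood samples correlated best with the infiltrating sample of their own number, a hint from the data that does not establish a pairing; the replicate block called 22 members, as without it. No normalisation, the Cy5 channel alone, each probe's own variance and leaving out samples 897 and 898 were chosen after seeing the data. Dim probes limit Cd79a, Blk, Tnfrsf13b, Cd180, Irf4, Cr2, Ebf1 and Pax5.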
